A study of Danio rerio with 28 samples.

Results

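RNA labelled with s4U and enriched from mir430-/- zebrafish embryos at the Sphere stage was compared with that of mir430-/- embryos at the 256-cell stage (256c), the outermost of the 4 stages sampled. The comparison rested on 6 of the 28 libraries of the series, 3 for mutant Sphere and 3 for mutant 256c, chosen by genotype, stage and iodoacetamide (IAA) treatment. The mutant embryos lack the mir430 locus, a microRNA gene cluster active from the earliest zygotic transcription, and they were injected with a MiR430 rescue solution together with s4UTP, a uridine nucleotide that carries sulfur. Wild type embryos of the same stages received s4UTP without the rescue, so deletion, rescue and line background cannot be told apart between genotypes, while both ends of the mutant course share all of them. All groups were whole embryos whose chorions were removed with Pronase. RNA with s4U was biotinylated, enriched on beads and treated with IAA, which alkylates the sulfur so that reverse transcription writes a changed base (SLAM-seq). Nothing in the labels says whether the biological replicates of a group came from separate clutches, and p-values therefore cover only the variation among the sampled libraries, which may be technical. Unlabelled RNA was not analysed here, and how much unlabelled maternal RNA passed the enrichment at either stage was not tested.

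At first the fish embryo lives on RNA and protein that the mother put into the egg, and its cells divide fast and in step with almost no transcription. Around the mid-blastula stages the zygotic genome is switched on by maternal factors such as Pou5f3, Sox19b and Nanog, the cell cycle lengthens, and maternal RNA is cleared, in part through miR-430. The first genes transcribed are often short, and many have few or no introns. By Sphere the blastula has its outer enveloping layer, a yolk syncytial layer below the blastoderm, and the first dorsal, ventral and marginal gene expression.

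The 3 mutant Sphere libraries held 2786051, 3731587 and 2733994 nuclear counts, and the 3 mutant 256c libraries 258302, 572054 and 634140. Nuclear genes made up 45.2% ± 14.8 of all counts at Sphere and 5.17% ± 2.53 at 256c (SD, n = 3 each), the rest being mitochondrial. A two-sided exact permutation test gave p = 0.1, the smallest that 3 against 3 allows. All levels below are nuclear counts scaled to a common library size (CPM, with TMM factors), so they are shares of the nuclear labelled RNA of a library and not amounts per embryo. Taken down to a common depth of 258302 counts, 13686 ± 1684 nuclear genes had a count at Sphere and 13985 ± 372 at 256c (SD, n = 3 each), and the exact permutation p was 0.9. At full depth the order was the other way round, with 22677 ± 1900 genes at Sphere and 15685 ± 1848 at 256c.

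The 3 mutant 256c libraries were not alike, and this touches most results below. Over the tested genes, log2 CPM of 256c replicate 3 correlated with the 3 Sphere libraries at 0.635, 0.550 and 0.543, that of replicate 2 at 0.440, 0.351 and 0.338, and that of replicate 1 at 0.239, 0.136 and 0.154. These are correlations across genes, which are not independent replicates. Among the genes that rose, 256c replicate 3 lay above replicate 1 by a median of 1.56 on the log2 scale, while at Sphere the same difference was -0.16. Among the genes that fell, it was -0.43 at 256c and -0.30 at Sphere. The median SD of log2(CPM + 1) over genes that rose was 0.53 at Sphere and 0.97 at 256c. Over genes that fell it was 0.56 and 0.54, and over genes not called 0.52 and 0.88. Nuclear depth of the 256c libraries ran in the same order as the correlations, lowest in replicate 1 and highest in replicate 3. Whether depth had a part in this, or whether the 256c embryos differed in exact age, was not tested.

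The targeted genes came first as a check on the labels. Of 55 mir430 genes in the table, mutant Sphere libraries held 9, 0 and 0 counts in all, and mutant 256c libraries 59, 1 and 1. Wild type libraries held 23911, 91497 and 204721 counts at Sphere and 8865, 10759 and 23346 at 256c. A count of 0 allows a share of up to 8.04e-05% and 0.00011% of nuclear counts in Sphere replicates 2 and 3, for counting error only. Counts were thus close to 0 in every mutant library, with the most in 256c replicate 1. Of the 49 mir430 genes that entered the fit 2 fell (4.08%, against 25.3% of all genes), dre-mir-430a-4 and dre-mir-430b-10. Neither call held without 256c replicate 1, Sphere replicate 2 or Sphere replicate 3. With only the 6 mutant libraries of the comparison 0 mir430 genes passed the filter, and with only the 12 mutant libraries 1 did. Most therefore entered through their wild type counts. The 2 falls rest on few counts and are no result about the locus. The copies are near-identical, so the split of reads among them is uncertain.

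Between 256c and Sphere, 3216 of 13168 tested genes rose in the mutant (24.4%) and 3338 fell (25.3%), by edgeR's quasi-likelihood test at an adjusted p under 0.05. The median log2 fold change was 3.01 among risen genes and -2.73 among fallen genes, against 0.05 over all tested genes. Changes over 4-fold made up 2793 of the rises and 2751 of the falls, and changes over 16-fold 813 and 198. The risen genes held 50.1% ± 4.11 of all nuclear counts at Sphere and 9.99% ± 2.2 at 256c, and the fallen genes 2.53% ± 0.642 at Sphere and 32.3% ± 17.4 at 256c (SD, n = 3 each). The balance of rises and falls hung on the scaling: 49.1% of calls were rises with TMM, 63.3% with RLE factors (median of all genes 0.61) and 62.4% with DESeq2 (0.60), and 30.8% with total nuclear counts (-0.82). No gene called in 1 direction was called in the other under these settings. Without 256c replicate 1 or 2, 2142 or 2148 genes rose, and without 256c replicate 3, 3757; without Sphere replicate 2, 2167 fell.

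Most called genes ran 1 way through the 4 stages. Of the risen genes, 3063 had their highest mean at Sphere (95.2%), 142 at Oblong and 11 at 1024c. Among the fallen genes, 2768 were highest at 256c (82.9%), 562 at 1024c and 8 at Oblong. The means climbed at each of the 3 steps for 2698 risen genes (83.9%) and dropped at each step for 2545 fallen genes (76.2%). The pace differed between the sets: the largest step fell between 256c and 1024c, 1024c and Oblong, and Oblong and Sphere for 1292, 1274 and 650 risen genes, and for 178, 649 and 2511 fallen genes. The outer stages also define the sets, so this is a description.

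**Figure D1:**
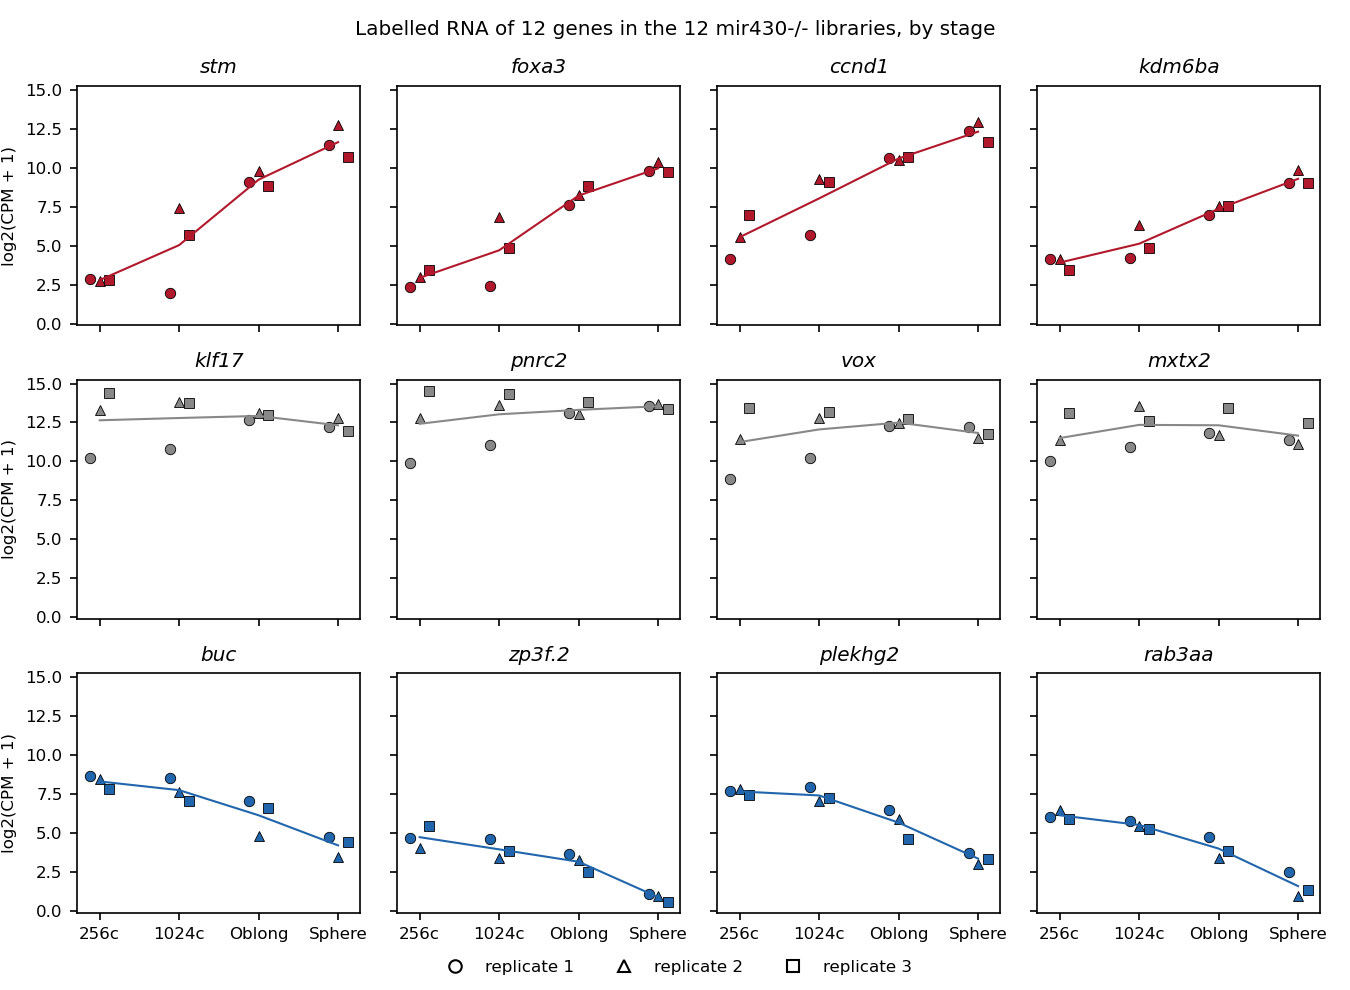
Levels of 12 genes in the 12 mutant libraries, as log2(CPM + 1) on the vertical axis against stage, with 1 point for each library, its replicate shown by the marker, and a line through the means. The 4 genes of the top row rose, the 4 of the middle row were not called and spread widely at 256c, and the 4 of the bottom row fell, with their lowest points at Sphere.

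The largest rises were in genes with few or no counts at 256c. notch3, which encodes a Notch receptor, had 486, 178 and 986 CPM in the Sphere libraries against 0 counts in all 3 256c libraries, at least 309-fold higher with 3 counts over the 256c group as the floor (edgeR adjusted p = 0.00053). Its mean was 45.5 CPM at 1024c and 178 CPM at Oblong. stm, which encodes the otolith matrix protein Starmaker, had 2857, 6882 and 1654 CPM at Sphere, against 6.13, 5.67 and 5.97 CPM at 256c. Every Sphere library stood far above the 256c libraries, which were close to each other, and the log2 fold change was 9.30 (SE 1.43, adjusted p = 0.00042). sema6dl, a semaphorin gene, had 363, 640 and 172 CPM at Sphere against a single count at 256c, a ratio of 676 (95% counting interval 121 to 26698).

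A further 9 genes of this group had 0 counts at 256c, which makes their folds lower bounds. The sulfotransferase gene chst7 was at least 44.0-fold higher, the retinoic acid binding protein gene crabp2b at least 39.0-fold, the calpain protease gene capn9 at least 38.5-fold and the spectrin gene sptbn5 at least 36.8-fold. The axonemal dynein gene dnai1.1 was at least 35.3-fold higher, and the protocadherin gene pcdh18b at least 31.3-fold. mmrn2b, a multimerin gene, had 63.6, 5.23 and 177 CPM at Sphere, and vsir, an immune receptor gene, had 47.3, 22.8 and 143 CPM; both were highest in Sphere replicate 3 and lowest in Sphere replicate 2. Their bounds were 45.9-fold and 40.2-fold, and unm_hu7912, with the same order of libraries, was at least 26.6-fold higher.

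The rises with the smallest adjusted p included enzymes of the same histone mark. kdm6ba encodes a demethylase of lysine 27 of histone H3 and had 508, 907 and 526 CPM at Sphere, against 16.4, 17 and 9.94 CPM at 256c. ezh2 encodes the methyltransferase of that lysine and had 297, 432 and 265 CPM at Sphere, against 18.4, 17 and 15.9 CPM at 256c. In both genes the groups were far apart and the 256c libraries close together. The log2 fold change was 5.47 for kdm6ba (SE 0.72) and 4.27 for ezh2 (SE 0.60), both with an adjusted p of 0.000302. pdcd10b, whose human relative is a cerebral cavernous malformation gene, had 169, 232 and 174 CPM at Sphere against 2.04, 1.42 and 5.97 CPM at 256c, and the myosin light chain kinase gene mylk5 had 256, 294 and 105 CPM against 4.09, 4.26 and 3.98 CPM. zswim5 rose by 4.27 (SE 0.59). ammecr1, with a single count at 256c, had a ratio of 130 (counting interval 23.1 to 5132), and tacc1, with 2 counts, a ratio of 119 (counting interval 32.9 to 987).

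Among the falls, the largest folds ended at or near 0 counts. mfsd6l, a transporter family gene, had 0 counts in the 3 Sphere libraries against 20.4, 15.6 and 3.98 CPM at 256c, at least 26.2-fold lower. The calcium channel gene cacna1da was at least 19.4-fold lower and the glypican gene gpc6a at least 10.3-fold lower on the same floor. buc2l, a relative of the germ plasm organizer bucky ball, had 0, 0 and 2.52 CPM at Sphere, against 83.8, 53.9 and 41.8 CPM at 256c (log2 fold change -5.93, SE 1.34, adjusted p = 0.00198). All 256c libraries stood far above the Sphere libraries. The metallothionein gene mt2 had 3.50, 0 and 2.52 CPM at Sphere against 100, 90.8 and 33.8 CPM at 256c. pak1, a p21-activated kinase gene, had 2.92, 0.951 and 0.504 CPM at Sphere against 112, 89.4 and 27.8 CPM at 256c, and it fell by 5.64 on the log2 scale (SE 1.11, adjusted p = 0.00104). snx29, gna11b, gemin7, os9 and ildr1b fell too, with log2 fold changes of -5.68, -5.15, -5.14, -5.10 and -5.09. rnf175, with 2 counts over the Sphere group, was 61.5 times lower, with a counting interval of 15.8 to 527.

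Among the falls with the smallest adjusted p, rab3aa, which encodes a small GTPase of vesicle release, had 4.67, 0.951 and 1.51 CPM at Sphere, against 65.4, 86.6 and 59.7 CPM at 256c (log2 fold change -4.85, SE 0.66, adjusted p = 0.000302). plekhg2, a guanine nucleotide exchange factor gene, had 12.3, 7.14 and 9.08 CPM at Sphere against 209, 231 and 173 CPM at 256c, with means of 176 CPM at 1024c and 56.9 CPM at Oblong. The groups were well apart in both genes. spint2, a protease inhibitor gene, fell by 3.69 (SE 0.60), the ribonuclease H1 gene rnaseh1 by 4.19 (SE 0.69), and nt5dc3, manbal and the mitochondrial ribosomal protein gene mrps18a by 3.02, 4.23 and 2.96.

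Another set of genes was already abundant at 256c in the mutant. Its levels there spread widely, many of its fold changes were small, and the course was not called. These genes were chosen by their 256c mean after the values were seen, a choice that favours high 256c values. klf17, a Krüppel-like factor gene, had 4643, 7192 and 3984 CPM at Sphere, against 1180, 10210 and 21570 CPM at 256c. The 256c libraries lay on both sides of the Sphere libraries (log2 fold change -1.06, SE 1.05, adjusted p = 0.402). pnrc2, an mRNA decay cofactor gene, had 12230, 13220 and 10480 CPM at Sphere against 975, 6976 and 23910 CPM at 256c. vox, a ventral repressor gene, had 4694, 2906 and 3504 CPM at Sphere against 458, 2775 and 11190 CPM at 256c. In all 3 genes, 256c replicate 1 was the lowest of the 6 libraries and 256c replicate 3 the highest.

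Over 20 genes chosen for their high mean in mutant 256c libraries, adjusted p ran from 0.083 to 0.944, with a median log2 fold change of 0.41. In wild type 17 of these 20 rose and the median was 4.13, against 31.3% risen and a median of 0.26 over all tested genes. Choosing by the mutant 256c mean tends to lower the mutant values and leaves the wild type ones free. The 2 medians are therefore not a measure of a difference between genotypes. The difference between the courses was called for none of the 20 by edgeR (adjusted p between 0.136 and 0.455). vox averaged 4807 CPM in mutant 256c and 1229 CPM in wild type 256c, and 3701 CPM in mutant Sphere and 5076 CPM in wild type Sphere. brd2a, a BET bromodomain gene, averaged 4853 CPM in mutant 256c and 260 CPM in wild type 256c, with 534, 3741 and 10280 CPM in the mutant libraries. The yolk syncytial regulator mxtx2 had 1037, 2683 and 8723 CPM in mutant 256c libraries and averaged 435 CPM in wild type ones. For 18 of the 20 genes replicate 1 was lowest and replicate 3 highest among the mutant 256c libraries. The choice by mean favours genes that are high in 1 library, and the share over all genes was not counted, so this is a description. Over all 6614 genes not called, 256c replicate 3 lay above replicate 1 by a median of 0.51 on the log2 scale.

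Per kilobase of exon, 5 of the 6 highest levels at 256c came from neighbours on chromosome 17. The 6 tested genes between positions 50037644 and 50063437 (GRCz11) took 2.62%, 2.71% and 2.54% of nuclear counts in the mutant Sphere libraries and 2.01%, 8.53% and 15.5% in the mutant 256c libraries. The Sphere libraries were nearly equal, and the 256c libraries lay on both sides of them. FO834825.2, the highest per kilobase at both stages, averaged 18437 CPM per kb at Sphere and 41766 CPM per kb at 256c (log2 fold change of the CPM -1.18, SE 1.13, adjusted p = 0.388). The others among the 6 highest at 256c were zgc:100951, FO704836.1, FO834825.3 and zgc:113886 on chromosome 17. Without 256c replicate 3, the log2 fold changes of zgc:100951, FO834825.3 and zgc:113886 were 0.17, 0.00042 and 0.50, against -1.20, -0.94 and -0.60 with it. AL935186.10 on chromosome 4 behaved otherwise: it had 521, 29.0 and 63.0 CPM at Sphere against 18790, 1907 and 5006 CPM at 256c, and it fell by 5.39 (SE 1.58, adjusted p = 0.00862). At Sphere the 5 genes per kilobase after FO834825.2 were copies of the histone H4 gene hist1h4l.

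**Figure D2:**
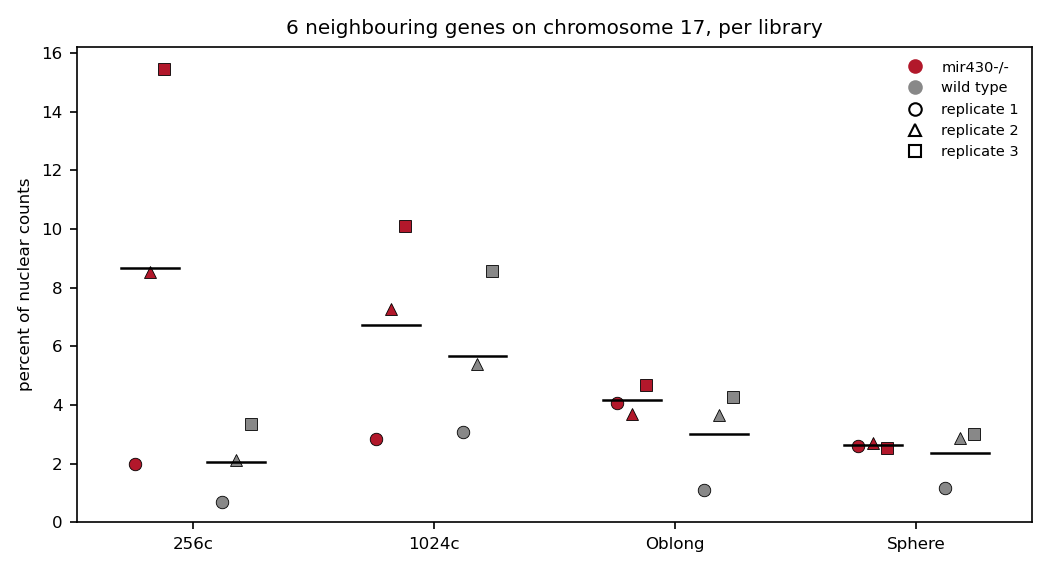
Share of nuclear counts, in percent, in 6 neighbouring genes on chromosome 17 at each stage, with 1 point for each mir430-/- and wild type library and a bar at each mean. The mutant Sphere libraries lie between 2.54% and 2.71%, while the mutant 256c libraries run between 2.01% and 15.5%.

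In the list of maternal activators of the zygotic genome, 3 of 13 genes rose (23.1%), about the rate of all genes. Of the list 1 gene fell (7.69%, against 25.3% of all genes). Whether its members activate the zygotic genome was not tested. Their median log2 fold change of 1.00 was 0.61 without 256c replicate 1 and 1.59 without 256c replicate 3. yy1a, a zinc finger regulator gene, had 296, 327 and 121 CPM at Sphere against 0, 4.26 and 15.9 CPM at 256c (log2 fold change 5.20, SE 1.1, adjusted p = 0.00145). prdm9, a histone methyltransferase gene known from meiosis, rose by 3.85. eomesa, a T-box gene, had 39.1, 40.4 and 14.1 CPM at Sphere against 42.9, 90.8 and 179 CPM at 256c and fell by 1.74 (adjusted p = 0.0284). The eomesa call was lost without 256c replicate 2 or 3 or Sphere replicate 3, and also with RLE factors and with DESeq2.

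Rises among Sox factors were near the background too, 3 of 11 (27.3%), while 0 fell, and the 2 sox11 copies led the rises. sox11b, a neural and early zygotic Sox gene, had 2712, 3354 and 2871 CPM at Sphere against 213, 183 and 153 CPM at 256c (log2 fold change 4.02, SE 0.72, adjusted p = 0.00066). sox11a had 2964, 4374 and 1478 CPM at Sphere against 2.04, 90.8 and 199 CPM at 256c (log2 fold change 4.92, SE 1.23). The 256c libraries agreed for sox11b and spread widely for sox11a, yet in both genes all Sphere libraries were higher. sox21b, with 3 counts at 256c, had a ratio of 10.5 (counting interval 3.51 to 51.9) (adjusted p = 0.0138), a call lost without 256c replicate 1 or 2. Of 8 Klf genes klf3 rose (12.5%) and klf9 fell, and of 11 Her repressor genes her6 and hes6 rose (18.2%). Without 256c replicate 3 a second Klf gene rose. klf9 lost its call without 256c replicate 1 or 2 or Sphere replicate 1 or 3, and with RLE factors or DESeq2. her6, a target of Notch signals, had 696, 575 and 647 CPM at Sphere against 0, 70.9 and 117 CPM at 256c (adjusted p = 0.0154), and without 256c replicate 2 neither Her gene was called; without 256c replicate 1 there were 1 rise and 2 falls in the list, and without Sphere replicate 1 there was 1 rise.

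Ventral fate genes, which answer to BMP signals, had 3 of 11 risen (27.3%). id1, an inhibitor of DNA binding, had 3478, 4264 and 2934 CPM at Sphere against 24.5, 352 and 597 CPM at 256c (log2 fold change 3.45, SE 1.04, adjusted p = 0.00979). The BMP pseudoreceptor gene bambia had 910, 908 and 911 CPM at Sphere against 10.2, 86.6 and 145 CPM at 256c (log2 fold change 3.49, SE 1.00), and the homeobox gene ved rose by 3.44, a call lost without 256c replicate 1 or Sphere replicate 2. For each of them 256c replicate 1 was low and the groups did not overlap.

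Of 14 mesendoderm factors 7 rose (50%), with a median of 1.83 that was 2.86 without 256c replicate 3. foxa3, a forkhead gene of endoderm and axial mesendoderm, had 879, 1310 and 863 CPM at Sphere against 4.09, 7.09 and 9.94 CPM at 256c. The separation was wide (log2 fold change 7.15, SE 1.06, adjusted p = 0.00042), and the mean was 48.1 CPM at 1024c and 313 CPM at Oblong. tbx16, a T-box gene of the margin, had 2737, 3832 and 1718 CPM at Sphere against 6.13, 21.3 and 45.7 CPM at 256c (log2 fold change 6.82, SE 1.19). The number of rises was 4 without 256c replicate 1 or 2. The member that fell was eomesa, given above. Anterior and neural factors had 5 of 16 risen (31.2%), among them zic2b with 2181, 3298 and 1608 CPM at Sphere against 14.3, 126 and 227 CPM at 256c (log2 fold change 4.27, SE 1.04, adjusted p = 0.00322). otx2b rose by 2.87, while otx1 fell by 2.38. In the absence of 256c replicate 1 or 2, 1 of the 16 rose, and without Sphere replicate 2, 3 did; otx1 was not called without 256c replicate 1 or Sphere replicate 3.

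FGF pathway genes showed the most rises among the signalling lists, 11 of 15 (73.3%), with a median log2 fold change of 3.0. Ligands of this family signal through receptor tyrosine kinases, and Etv factors and Sprouty proteins are targets and feedback inhibitors. The receptor gene fgfr4 had 4750, 4942 and 4711 CPM at Sphere against 22.5, 163 and 410 CPM at 256c (log2 fold change 4.60, SE 1.1, adjusted p = 0.00271). The feedback gene spry4 had 403, 460 and 294 CPM at Sphere against 0, 12.8 and 7.95 CPM at 256c (log2 fold change 5.71, SE 1.13). Groups did not overlap in either gene, and the target gene etv4 rose by 4.88. il17rd, a feedback inhibitor also called sef, fell by 1.67 (adjusted p = 0.0219) and rose by 2.21 in wild type. Its call in the mutant was lost without 256c replicate 1 or 2 or Sphere replicate 2 or 3. No FGF pathway gene fell with RLE factors or with DESeq2. The difference between the courses was not called by edgeR for il17rd or any other FGF pathway gene.

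Rises among Nodal pathway genes were near the background, 3 of 14 (21.4%), and 2 fell (14.3%, against 25.3% of all genes). The receptor gene acvr1ba had 292, 195 and 286 CPM at Sphere against 24.5, 19.9 and 19.9 CPM at 256c (log2 fold change 3.58, SE 0.59, adjusted p = 0.000467). The feedback gene dact2 rose by 6.35 and the target gene mixl1 by 3.48. gdf3, the maternal partner ligand Vg1, had 95.7, 13.3 and 35.8 CPM at Sphere against 149, 253 and 306 CPM at 256c and fell by 2.29 (SE 0.72, adjusted p = 0.0123), a call lost without Sphere replicate 2, which left 1 fall. smad3a, a signal transducer gene, fell by 3.07 (SE 0.86). The list median was 0.49, -0.37 with total nuclear counts, and 0.27, 0.88 and 1.54 without 256c replicates 1, 2 and 3 in turn.

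BMP and organizer genes had 6 of 16 risen (37.5%) and 1 fallen, with a median of 1.53 that was 0.96 without 256c replicate 1 and 2.84 without 256c replicate 3. The ligand gene bmp7a had 394, 938 and 360 CPM at Sphere against 0, 4.26 and 17.9 CPM at 256c (log2 fold change 6.25, SE 1.08, adjusted p = 0.000546). The inhibitory Smad gene smad7 rose by 4.59 and cyp26a1, which encodes a retinoic acid degrading enzyme, by 3.93. bmp1a, a protease gene, had 14.0, 4.76 and 3.03 CPM at Sphere against 77.7, 76.6 and 19.9 CPM at 256c and fell by 3.0 (SE 0.88). Wnt genes had 6 of 14 risen (42.9%) and 3 without Sphere replicate 2, with a median of 1.44. wnt5b, a ligand gene of cell movement, had 29.8, 38.5 and 76.2 CPM at Sphere against a single count at 256c, a ratio of 82.8 (counting interval 14.7 to 3282). The transcription factor gene tcf7l1a rose by 3.2 and the target gene axin2 by 2.54. ctnnb2, a beta-catenin gene known for maternal dorsal signalling, fell by 1.40 (edgeR adjusted p = 0.0355). No single-library omission kept that call except that of Sphere replicate 2, and RLE factors and DESeq2 lost it too.

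Apelin and chemokine genes, which guide moving cells, had 5 of 9 risen (55.6%) and a median of 2.75. aplnra, an apelin receptor gene, had 777, 801 and 1423 CPM at Sphere against 18.4, 28.4 and 63.6 CPM at 256c (log2 fold change 4.76, SE 1.07, adjusted p = 0.00216). The chemokine ligand gene cxcl12b had 295, 32.8 and 1104 CPM at Sphere against 10.2, 5.67 and 3.98 CPM at 256c, so the Sphere libraries spread widely and still lay above 256c (log2 fold change 6.16, SE 1.70). cxcl12a rose by 3.89 with another order of Sphere libraries, highest in replicate 2. Adhesion and migration genes had 13 of 27 risen (48.1%) and a median of 2.11. pcdh8, a protocadherin gene of the paraxial mesoderm, had 174, 180 and 117 CPM at Sphere against 2 counts at 256c, a ratio of 133 (counting interval 36.7 to 1100). msna, which encodes moesin, fell by 1.62 (edgeR adjusted p = 0.0376). That call was lost without 256c replicate 1 or 2 or Sphere replicate 1 or 3, and with RLE factors or DESeq2. Without 256c replicate 3, 3 members fell.

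Genes of the extraembryonic layers rose in most tested cases. Of 27 enveloping layer genes, 14 were tested and 9 rose (64.3%), with a median of 3.54. krt4, a keratin gene of this outer epithelium, had 491, 655 and 180 CPM at Sphere against 0, 0 and 9.94 CPM at 256c (log2 fold change 7.10, SE 1.26, adjusted p = 0.000672). krt18a.1 had 1415, 1513 and 897 CPM at Sphere against 6.13, 29.8 and 31.8 CPM at 256c. krt96, at least 6.73-fold higher, was not called without 256c replicate 1 or 2. Of 17 yolk syncytial genes 10 were tested, 7 rose (70%) and camsap3 fell. hnf4a, a nuclear receptor gene, had 26.9, 59.0 and 20.2 CPM at Sphere against 0 counts at 256c, at least 20.5-fold higher, and its mean was 0.489 CPM at 1024c and 1.84 CPM at Oblong. apoba, which encodes the apolipoprotein of yolk lipid export, had 363, 862 and 408 CPM at Sphere against 2.04, 4.26 and 21.9 CPM at 256c (log2 fold change 5.87, SE 0.96). Summed over all members, yolk syncytial genes stood at 3853, 4355 and 6986 CPM in the Sphere libraries and 1219, 2917 and 9035 CPM in the 256c libraries, so the sums overlapped. Enveloping layer sums overlapped too. They were 16343, 21082 and 15194 CPM in the Sphere libraries and 1802, 14062 and 28449 CPM in the 256c libraries. In whole embryos, more cells of a type and more RNA per cell cannot be told apart.

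Markers of differentiated tissues were low. Of 20 such genes 2 had 0 counts in all 6 libraries and 2 entered the fit, and elavl3, a neuronal RNA-binding protein gene, rose with 88.1, 59.0 and 174 CPM at Sphere against 0, 9.93 and 3.98 CPM at 256c (adjusted p = 0.00212). The whole list summed to between 102 and 275 CPM at Sphere and between 4.09 and 35.8 CPM at 256c, and without Sphere replicate 1 a second member rose. Of 48 hox genes 1, hoxa4a, was tested.

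Genes of the oocyte and germ plasm fell in most tested cases. Their RNA is maternal, and carry-over of unlabelled RNA through the enrichment was not tested. Of 15 tested germ plasm genes 9 fell (60%) and 1 rose, with a median log2 fold change of -3.06. buc, the organizer of the Balbiani body and germ plasm, had 25.7, 9.99 and 20.7 CPM at Sphere against 407, 350 and 223 CPM at 256c (log2 fold change -4.11, SE 0.93, adjusted p = 0.00201). The carbonic anhydrase gene ca15b fell by 4.54 and piwil2, a piRNA pathway gene, by 3.81. celf1, an RNA-binding protein gene that somatic cells use too, rose by 1.34 (adjusted p = 0.0227), a call lost without 256c replicate 2 or 3 or Sphere replicate 2. Of 22 zona pellucida and oocyte genes 16 fell (72.7%), with a median of -3.13. zp3f.2, an egg coat gene, had 1.17, 0.951 and 0.504 CPM at Sphere against 24.5, 15.6 and 43.7 CPM at 256c (log2 fold change -4.81, SE 0.76, adjusted p = 0.00042). zar1l, a maternal RNA-binding protein gene, had 1.75, 0.476 and 0.504 CPM at Sphere against 22.5, 12.8 and 17.9 CPM at 256c. For both genes every 256c library was far above every Sphere library. The summed level of the germ plasm list did not follow its median member, with 2361, 2576 and 2159 CPM in the Sphere libraries and 1202, 2072 and 4419 CPM in the 256c libraries. Sums of the zona pellucida and oocyte list overlapped too, with 2043, 1906 and 1231 CPM at Sphere and 2288, 1610 and 1935 CPM at 256c. ybx1, an RNA-binding protein gene, rose by 1.84 (adjusted p = 0.0362), and only the omission of Sphere replicate 3 kept that call.

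In the cell cycle list 19 of 40 genes rose (47.5%) and 6 fell (15%), with a median of 1.59 that was 2.70 without 256c replicate 3. ccnd1, the G1 cyclin D gene, had 5207, 7747 and 3264 CPM at Sphere against 16.4, 45.4 and 125 CPM at 256c (log2 fold change 6.44, SE 1.15, adjusted p = 0.000642). mcm7, a replication licensing gene, rose by 4.35, and ccne2, a cyclin E gene, had 283, 249 and 891 CPM at Sphere against 8.18, 14.2 and 89.5 CPM at 256c. Among the falls, wee2, the oocyte Wee kinase gene, had 3.50, 0.951 and 2.02 CPM at Sphere against 30.7, 25.5 and 23.9 CPM at 256c (log2 fold change -3.58, SE 0.82). ccna1, the germline cyclin A gene, fell by 3.31. cdc25d fell by 2.31 with groups that overlapped, a call lost without 256c replicate 2 or 3 or Sphere replicate 1 or 2; without Sphere replicate 2 the list had 2 falls.

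Of 23 genes of p53 and DNA damage 3 rose (13%) and 4 fell (17.4%); with RLE factors 6 rose, and DESeq2 called 11 as risen, with 4 fallen in each. atm, a kinase gene of double-strand break signalling, had 172, 156 and 318 CPM at Sphere against 6.13, 7.09 and 17.9 CPM at 256c (log2 fold change 4.37, SE 0.88, adjusted p = 0.00113). atr, the kinase gene of replication stress, went the other way, with 11.1, 4.28 and 9.08 CPM at Sphere against 85.9, 41.2 and 69.6 CPM at 256c (log2 fold change -2.99, SE 0.74). sesn3, a sestrin gene, had 816, 139 and 1459 CPM at Sphere and rose by 4.64, and casp9, the initiator caspase gene, fell by 3.06. The list's summed level was 14221, 4990 and 27562 CPM in the Sphere libraries and 4065, 6606 and 17614 CPM in the 256c libraries, so the groups overlapped. The median was 0.75, -0.23 with total nuclear counts, -0.09 without Sphere replicate 3 and 1.16 without 256c replicate 3.

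Among genes of transcription elongation 13 of 37 rose (35.1%) and 4 fell (10.8%). polr2a, the largest subunit gene of RNA polymerase II, had 1660, 2023 and 1245 CPM at Sphere against 94.1, 96.5 and 147 CPM at 256c (log2 fold change 3.87, SE 0.64, adjusted p = 0.000467). The negative elongation factor gene nelfcd rose by 3.25 and cdk7, the kinase gene of TFIIH, by 3.14. ell, an elongation factor gene, had 84.6, 43.3 and 47.4 CPM at Sphere against 491, 636 and 292 CPM at 256c and fell by 3.02 (SE 0.67), and so did the BET gene brd2b (-2.84). eaf1, whose product binds ELL proteins, fell by 3.12, with 256c replicate 2 inside the range of the Sphere libraries. cdk9, the kinase gene of P-TEFb, had 228, 221 and 118 CPM at Sphere against 268, 227 and 334 CPM at 256c (log2 fold change -0.55, SE 0.58, adjusted p = 0.43). Its groups overlapped, and its sign turned with RLE factors and with DESeq2. The list median was 0.88, and -0.09 with total nuclear counts.

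Mediator and TFIID genes had 13 of 43 risen (30.2%) and 5 fallen (11.6%). med1, a Mediator subunit gene, had 58.9, 71.4 and 71.6 CPM at Sphere against 2.04, 2.84 and 3.98 CPM at 256c (log2 fold change 4.45, SE 0.77, adjusted p = 0.000551). The TFIID subunit gene taf7 had 43.2, 65.6 and 34.8 CPM at Sphere against 3 counts at 256c, a ratio of 27.4 (counting interval 9.28 to 134), and med15 rose by 4.18. tbpl2, the oocyte form of the TATA-binding protein gene, had 1.17, 0 and 0.504 CPM at Sphere against 24.5, 9.93 and 7.95 CPM at 256c, 26.2 times lower with a counting interval of 7.92 to 136. med18 and med11 fell by 2.94 and 2.48; the med18 call was lost without 256c replicate 3 or Sphere replicate 2. The median was 0.76, and -0.03 with total nuclear counts; without Sphere replicate 2, 3 members fell.

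Chromatin genes had 14 of 35 risen (40%) and 6 fallen (17.1%). Beside kdm6ba, the histone H3 lysine 4 methyltransferase gene kmt2d had 505, 812 and 312 CPM at Sphere against 14.3, 15.6 and 29.8 CPM at 256c (log2 fold change 4.77, SE 0.80, adjusted p = 0.000481). dnmt3ab, a de novo DNA methyltransferase gene with a single count at 256c, had a ratio of 30.7 (counting interval 5.40 to 1225), a call lost without 256c replicate 1 or 3. Other genes of DNA methylation fell: uhrf1, the maintenance cofactor, had 181, 254 and 112 CPM at Sphere against 1114, 1596 and 656 CPM at 256c (log2 fold change -2.62, SE 0.62, adjusted p = 0.00266), and dnmt3bb.1 fell by 3.51. smchd1, a chromosome structure gene, fell by 3.74. The list median was 1.03, -0.000327 with total nuclear counts and 0.55 without Sphere replicate 2.

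Genes of the microRNA pathway and of mRNA decay divided, with 16 of 42 risen (38.1%) and 9 fallen (21.4%). The Argonaute genes went apart. ago2, the slicing Argonaute, had 438, 548 and 290 CPM at Sphere against 6.13, 14.2 and 47.7 CPM at 256c (log2 fold change 4.23, SE 0.81, adjusted p = 0.000874). ago3b had 8.17, 2.85 and 7.57 CPM at Sphere against 299, 187 and 115 CPM at 256c (log2 fold change -4.99, SE 0.88, adjusted p = 0.000593), and ago1 fell by 3.88. cnot9 of the CCR4-NOT deadenylase rose by 3.27, and ythdf2, a reader of methylated adenosine, had 751, 807 and 493 CPM at Sphere against 8.18, 42.6 and 183 CPM at 256c. The list median was 0.83, and -0.09 with total nuclear counts. The LSm list holds genes of the rings that bind uridine tails and the RNA granule gene lsm14b. It had 4 of 11 risen (36.4%) and 3 fallen (27.3%). Its median of 0.38 was -0.47 with total nuclear counts, -0.28 without 256c replicate 2 and 1.13 without 256c replicate 3. lsm1, of the cytoplasmic decay ring, fell by 3.61 and lsm4 by 2.74. The nuclear ring gene lsm8 had 14.0, 15.2 and 20.2 CPM at Sphere against 4.09, 1.42 and 3.98 CPM at 256c. It rose by 2.39 in the mutant (adjusted p = 0.00733) and fell by 2.09 in wild type. The difference between the courses was not called by edgeR for lsm8 or any other gene of this list. lsm14b, an oocyte RNA granule gene, had 96.9, 20.9 and 48.9 CPM at Sphere against 814, 826 and 754 CPM at 256c. There were 2 or 1 rises among LSm genes without 256c replicate 1 or 2, and the lsm8 call was lost without replicate 2.

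Splicing factor genes rose together: 35 of 53 (66%), with a median of 2.31, and 2 fell. snrnp200, a helicase gene of the U5 particle, had 760, 611 and 804 CPM at Sphere against 26.6, 58.2 and 15.9 CPM at 256c (log2 fold change 4.41, SE 0.82, adjusted p = 0.00076). snrnp70, a U1 protein gene, rose by 4.32 and the SR protein gene srsf1b by 3.89. u2af2b fell by 1.95, with 124, 164 and 131 CPM at Sphere against 577, 806 and 239 CPM at 256c, and sf3a1 fell by 1.65. Of the 53 genes, 23 or 21 rose without 256c replicate 1 or 2. The u2af2b call was lost without 256c replicate 2, and the sf3a1 call without Sphere replicate 2 or 3. With RLE factors no splicing factor gene fell, and with DESeq2 2 did.

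Genes of the cytosolic ribosome rose in most cases, 58 of 77 (75.3%), with a median of 2.70, and without 256c replicate 1 or 2, 36 or 33 rose. rpl36 had 92.2, 85.2 and 45.9 CPM at Sphere against 0, 1.42 and 7.95 CPM at 256c (log2 fold change 4.57, SE 0.98, adjusted p = 0.00158). rps16 had 38.5, 34.7 and 24.2 CPM at Sphere against a single count at 256c, a ratio of 54.7 (counting interval 9.70 to 2173), and rps15 a ratio of 37.7 (counting interval 10.3 to 313). The exception was a copy of rpl37 on chromosome 2, with 9.34, 0.951 and 6.05 CPM at Sphere against 59.3, 79.5 and 53.7 CPM at 256c (log2 fold change -3.55, SE 0.78). Ribosomal protein genes have many copies, which leaves their split of reads uncertain. Translation factors had 14 of 28 risen (50%), and eef1a1l1, an elongation factor gene, had 12750, 11760 and 6238 CPM at Sphere against 85.9, 224 and 889 CPM at 256c (log2 fold change 4.68, SE 1.1). eif4g1a rose by 4.01 and eef1b2 by 3.71, while eif4a1b and eif4g2a fell by 1.85 and 1.73. The risen translation factors numbered 9 without 256c replicate 1 or Sphere replicate 2. Neither fall was called without 256c replicate 2 or Sphere replicate 2 or 3, or with RLE factors, and DESeq2 gave 1 fall.

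Nucleolar genes had 12 of 33 risen (36.4%) and 4 fallen (12.1%), with gnl3, which encodes nucleostemin, at 200, 264 and 171 CPM at Sphere against 6.13, 12.8 and 27.8 CPM at 256c (log2 fold change 3.76, SE 0.79, adjusted p = 0.00144). The nucleolin gene ncl and the helicase gene ddx18 rose by 2.85 and 2.83, calls lost without 256c replicate 1 or 2, while nol6 fell by 2.44. Without 256c replicate 1, 256c replicate 2 or Sphere replicate 2, 6, 4 or 6 members rose and 2, 1 or 1 fell, and without Sphere replicate 3, 2 fell. Of 55 mitochondrial ribosomal protein genes 20 fell (36.4%) and 10 rose (18.2%), with a median of -0.93 that was -0.55 without 256c replicate 3 and -0.56 without Sphere replicate 2. These counts moved with the processing: RLE factors gave 15 falls and 15 rises, DESeq2 16 of each, and the fit without a filter 13 of each among 74 genes. mrpl19 had 12.8, 7.61 and 6.05 CPM at Sphere against 83.8, 90.8 and 113 CPM at 256c (log2 fold change -3.43, SE 0.78, adjusted p = 0.00206), and mrps11 fell by 3.11. mrps6 had 11.7, 16.2 and 3.53 CPM at Sphere against 0 counts at 256c, at least 5.95-fold higher.

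Nuclear genes of the respiratory chain were close to the background, with 14 of 52 risen (26.9%), 10 fallen (19.2%) and a median of 0.96. Within complex I, ndufb4 had 14.0, 19.0 and 21.2 CPM at Sphere against 2 counts at 256c, a ratio of 15.5 (counting interval 4.19 to 130). ndufb10 of the same complex had 1.17, 0.476 and 1.01 CPM at Sphere against 26.6, 7.09 and 35.8 CPM at 256c (log2 fold change -4.52, SE 0.78, adjusted p = 0.00053). Members of 1 complex therefore moved in both directions. Without 256c replicates 1, 2 and 3 in turn, 8, 6 and 25 members rose and the median was 0.64, 0.59 and 1.53. Proteasome genes had 22 of 41 risen (53.7%), and 13 without 256c replicate 1 or 2. psmc5, an ATPase gene of its base, had 99.2, 99.0 and 98.9 CPM at Sphere against 0, 5.67 and 9.94 CPM at 256c (log2 fold change 4.20, SE 0.79), and psmd5, a chaperone gene of proteasome assembly, fell by 1.99. psmg1, another assembly chaperone gene, fell by 1.86, a call lost without 256c replicate 2 or Sphere replicate 2 or 3.

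Histone genes had the highest share of rises of any list with over 2 tested genes, 45 of 54 (83.3%), with a median of 3.42. Every Sphere library lay above every 256c library in 33 of the 54, so some called rises had overlapping groups. They include replication-dependent genes without introns whose RNA ends without a poly(A) tail, and the libraries were made without poly(A) selection. A hist1h4l copy on chromosome 25 (ENSDARG00000111753) had 4899, 2269 and 1555 CPM at Sphere against 10.2, 90.8 and 404 CPM at 256c (log2 fold change 4.11, SE 1.07, adjusted p = 0.00429). Another on chromosome 7 (ENSDARG00000111501) had 1760, 1869 and 148 CPM at Sphere against 6.13, 18.4 and 49.7 CPM at 256c. The summed level of the list was 80144, 56475 and 16837 CPM in the Sphere libraries and 1491, 4906 and 14556 CPM in the 256c libraries. Sphere replicate 3 was thus low and 256c replicate 3 high, and the sums of these 2 libraries were close. Without 256c replicate 1 or 2, 26 or 27 histone genes rose, and 46 did without Sphere replicate 3 and 47 without 256c replicate 3. h1m, the maternal linker histone gene, fell, with 7.59, 0.951 and 4.03 CPM at Sphere against 55.2, 61.0 and 45.7 CPM at 256c (log2 fold change -3.67, SE 0.81, adjusted p = 0.00176). The copies are near-identical, and the division of reads between them is uncertain.

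Stress genes showed no common direction. Heat shock and unfolded protein genes had 5 of 24 risen (20.8%) and 7 fallen (29.2%), with a median of -0.19 that was 0.37 with RLE factors and between -0.43 and 0.04 with single libraries left out, above 0 without Sphere replicate 1 or 256c replicate 3. hspa8, the constitutive Hsc70 gene, had 1709, 2380 and 1096 CPM at Sphere against 71.6, 121 and 288 CPM at 256c (log2 fold change 3.43, SE 0.77, adjusted p = 0.0019). dnajb9b, an endoplasmic reticulum chaperone gene, had 5.84, 1.43 and 6.05 CPM at Sphere against 55.2, 48.2 and 81.5 CPM at 256c (log2 fold change -3.77, SE 0.66). atf4b and atf4a, genes of the integrated stress response, rose by 3.61 and 2.41, the atf4a call being lost without 256c replicate 1 or 2, and the calreticulin gene calr3a fell by 3.14. Rises numbered 2 without 256c replicate 1 or 2, and without Sphere replicate 2, 3.

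Immediate early genes had 6 of 19 risen (31.6%), with a median of 1.67 that was 1.03 without Sphere replicate 3. jun, an AP-1 gene, had 268, 49.0 and 1303 CPM at Sphere against 45.0, 29.8 and 59.7 CPM at 256c, so the groups overlapped (log2 fold change 3.59, SE 1.32, adjusted p = 0.0286). fosl1a had 30.4, 6.19 and 59.5 CPM at Sphere against 3 counts at 256c, a ratio of 17.8 (counting interval 6.01 to 87.4). dusp1, a phosphatase gene, had 1709, 2021 and 2327 CPM at Sphere against 45.0, 210 and 696 CPM at 256c. The jun and dusp1 calls were lost without 256c replicate 1 or 2, and that of jun also without Sphere replicate 3. Without 256c replicate 1, 256c replicate 2 or Sphere replicate 3, 2, 1 or 3 members rose. jund fell by 1.93, a call that of the single-library omissions survived only that of 256c replicate 3. RLE factors and DESeq2 lost the jund call too. Interferon response genes had 3 of 8 risen (37.5%): rsad2, with 25.1, 4.76 and 110 CPM at Sphere against 2 counts at 256c, stat1a and isg20. None of the 3 was called without 256c replicate 1 or 2 or Sphere replicate 3, the library highest for each, by edgeR; with all libraries, DESeq2 called 4 of the 8 as risen.

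Zinc finger (znf) genes were counted by position, since the long arm of chromosome 4 is dense with them. On chromosome 4, 46 of 151 rose (30.5%) and 0 fell, with a median of 1.74. Off it 67 of 144 rose (46.5%) and 15 fell (10.4%), with a median of 1.69. znf1046 on chromosome 4 had 332, 512 and 157 CPM at Sphere against 4.09, 9.93 and 17.9 CPM at 256c (log2 fold change 4.96, SE 1.27, adjusted p = 0.00427). znf281a on chromosome 3 had 617, 705 and 335 CPM at Sphere against 2.04, 4.26 and 11.9 CPM at 256c (log2 fold change 6.49, SE 1.09), and znf653 on chromosome 3 fell by 4.53 (SE 0.95). Counts of rises on chromosome 4 moved with single libraries: 10, 12 and 70 without 256c replicates 1, 2 and 3, and 30 and 13 without Sphere replicates 1 and 2. Off chromosome 4, 41 rose without 256c replicate 1. Processing moved both lists and the gap between them. Rises on and off chromosome 4 numbered 23 and 39 with total nuclear counts and 73 and 88 with RLE factors. They numbered 86 and 94 with DESeq2 and 86 and 83 with the replicate block. The summed level on chromosome 4 was 36764, 53633 and 22146 CPM in the Sphere libraries and 1693, 14337 and 32236 CPM in the 256c libraries, so the groups overlapped. Of all 572 tested genes that start at or beyond 25000000 on chromosome 4 (GRCz11), 173 rose (30.2%) and 29 fell (5.07%), against 58 (20.6%) and 74 (26.3%) of the 281 genes before that point. Many of these genes are near-identical copies. Tested mir430 genes of chromosome 4, which the mutant lacks and which could hardly be called there, were not taken out of these shares.

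**Figure D3:**
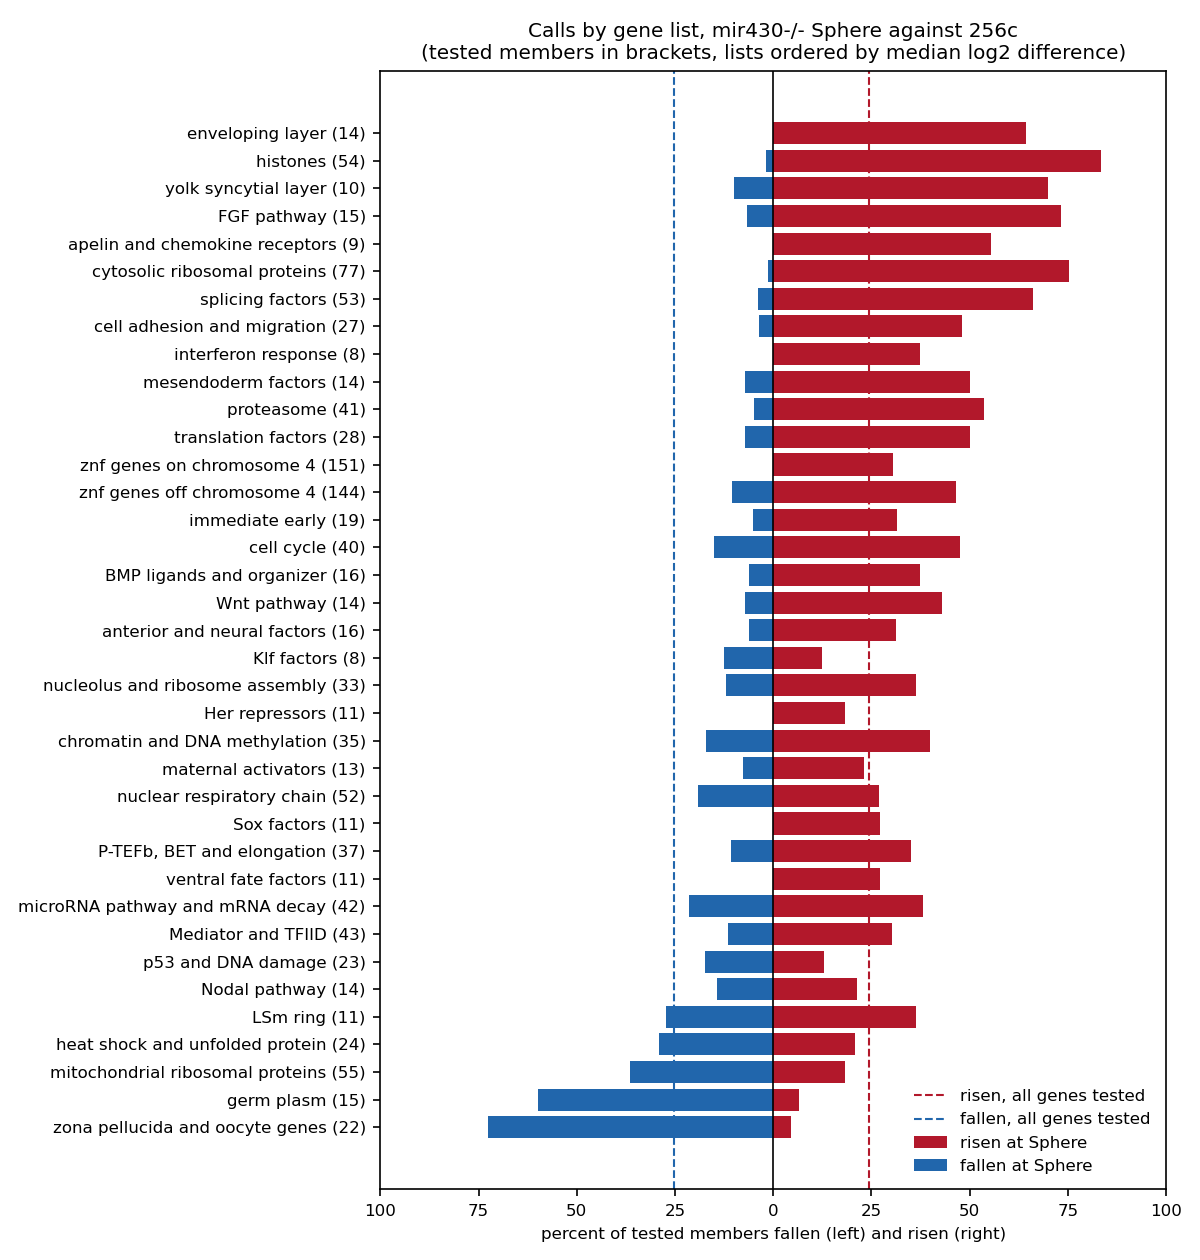
Percent of tested members that rose (right) and fell (left) at Sphere against 256c in the mutant, by gene list. Lists with at least 5 tested members are shown, without the mir430 genes, in order of median log2 fold change. Dashed lines give the 24.4% and 25.3% of all tested genes; histones had the highest risen share, 83.3%, and zona pellucida and oocyte genes the highest fallen share, 72.7%.

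Gene structure, taken from the annotation in the deposited table, differed between the sets. Among genes that span under 2 kb of genome 38.7% rose and 11.7% fell, and among genes of 100 kb or more 13.1% rose and 36.5% fell. The median span was 13578.5 bases for risen genes, 24058.5 for fallen genes and 16802 for those not called. Of genes with 1 exon 48.5% rose and 5.36% fell, against 20.1% and 30.8% of genes with 21 or more exons. Splitting the genes by mean CPM into 3 equal parts, genes under 5 kb against genes of 50 kb or more rose in 14.0% against 7.77% in the lowest part, 31.0% against 15.8% in the middle part and 52.7% against 22.7% in the highest part. Falls ran the other way, with 19.0% against 25.3%, 19.4% against 43.5% and 8.10% against 43.6%. In wild type 51.4% of genes under 2 kb and 13.3% of genes of 100 kb or more rose. The median number of counts summed over the 3 256c libraries was 32 for genes of 100 kb or more and 23 for genes under 2 kb. Tested mir430 genes, which the mutant lacks, were not taken out of the shares by span and exon number.

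**Figure D4:**
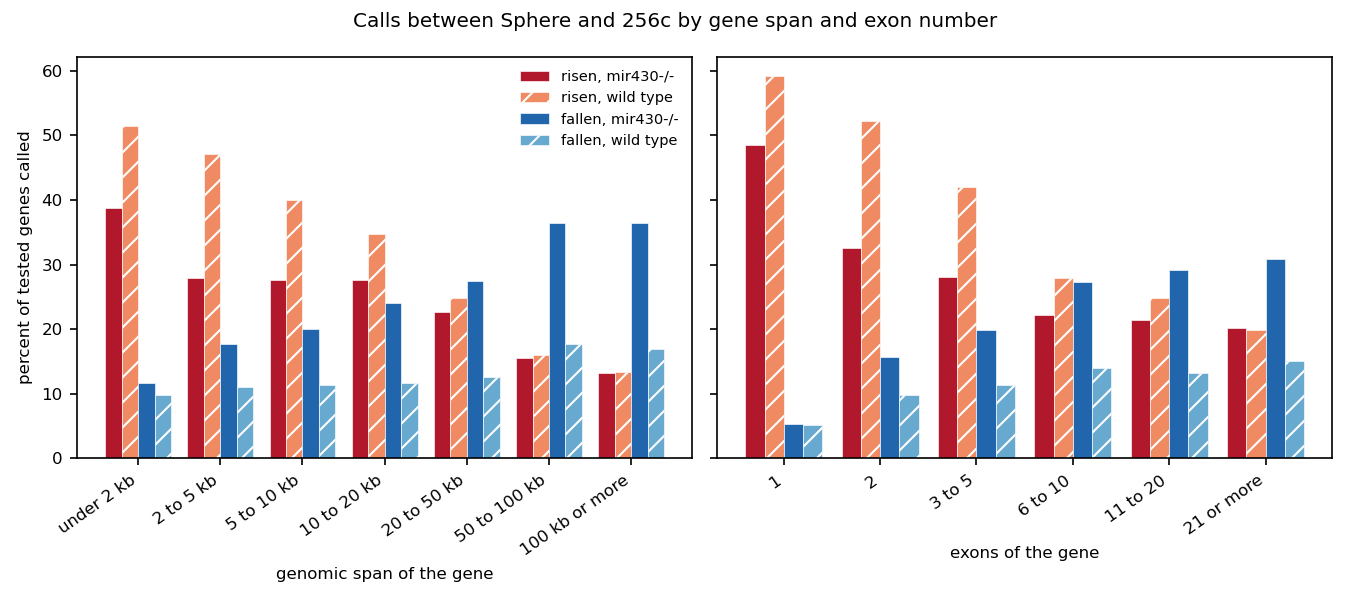
Percent of tested genes called risen and fallen between Sphere and 256c, by genomic span (left panel) and number of exons (right panel), in mir430-/- and, hatched, in wild type. In the mutant the risen share goes down and the fallen share up with span, 38.7% and 11.7% under 2 kb and 13.1% and 36.5% at 100 kb or more.

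Set beside the wild type course, which shares no library with the mutant one, the called genes mostly had the same sign. Of the genes that rose in the mutant 3110 were positive in wild type (96.7%), and of those that fell 3146 were negative (94.2%), while over all 13168 tested genes 7008 were positive in wild type. In wild type 4121 genes rose (31.3%) and 1687 fell (12.8%). The number of wild type falls hung on single libraries: it was 3725 without wild type Sphere replicate 1 and 411 without wild type Sphere replicate 3. The wild type 256c libraries were also shallower than the mutant ones, with 204534, 160889 and 164092 nuclear counts. Shares of falls are therefore not a measure of a difference between genotypes. Genes called in the same direction in both courses numbered 2539 rises, 78.9% of the mutant ones, and 1283 falls, 38.4% of the mutant ones. Opposite calls were few: 6 genes rose in the mutant and fell in wild type, and 11 the reverse. The genes that rose in the mutant had a median log2 fold change of 3.01 in the mutant and 3.75 in wild type, and the genes that fell -2.73 in the mutant and -1.63 in wild type.

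The difference between the courses was called for 11 genes, 2 more positive in the mutant (0.0152%) and 9 more negative (0.0683%), while 2071 of 13168 had an unadjusted p under 0.05. The median difference over all genes was -0.74, and -0.43 with RLE factors. tomm70a, which encodes a mitochondrial import receptor, had 61.3, 75.6 and 82.2 CPM at mutant Sphere against 8.18, 14.2 and 5.97 CPM at mutant 256c and rose by 2.90, while its wild type value was -0.57. scp2b, a sterol carrier gene, had 18.1, 3.81 and 11.6 CPM at mutant Sphere against 77.7, 49.7 and 73.6 CPM at mutant 256c, a log2 fold change of -2.58, and rose by 2.66 in wild type. srek1ip1, a splicing regulator gene, had 43.2, 56.6 and 39.8 CPM at mutant Sphere against 40.9, 114 and 87.5 CPM at mutant 256c (log2 fold change -0.80, adjusted p = 0.29), and 12.1, 52.1 and 44.7 CPM at wild type Sphere against 0 counts at wild type 256c. The number of called differences moved with single libraries. edgeR called 0 genes without mutant 256c replicate 2, any 1 mutant Sphere library, any 1 wild type 256c library, or wild type Sphere replicate 2 or 3, with between 1865 and 2223 genes at an unadjusted p under 0.05 in those fits. Without mutant 256c replicate 3, 0 were positive and 2 negative; without mutant 256c replicate 1, 14 and 363; without wild type Sphere replicate 1, 30 and 135. With all libraries DESeq2 called 125 positive and 382 negative.

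**Figure D5:**
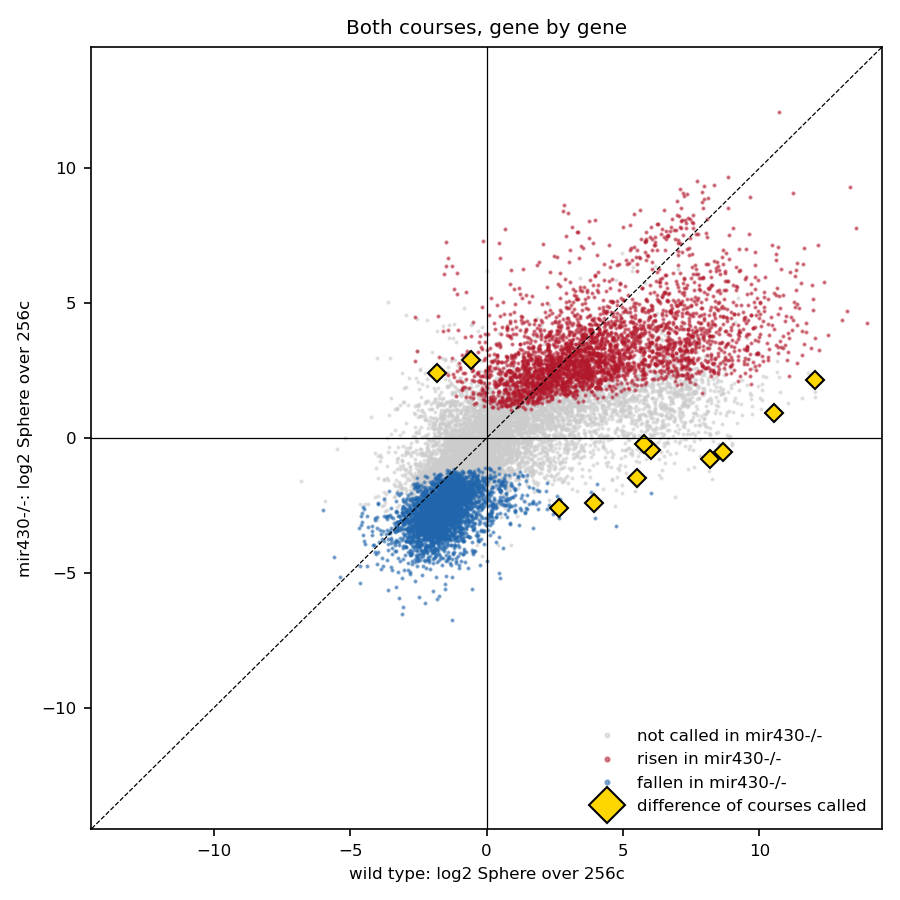
Log2 Sphere over 256c of each tested gene in mir430-/- (vertical axis) against wild type (horizontal axis), coloured by the call in the mutant, with diamonds for the 11 genes whose courses differed by the test. Most risen and fallen genes share their sign in both genotypes, and 9 of the 11 marked genes lie below the diagonal.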

How the data were processed

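The series holds SLAM-seq libraries of whole zebrafish embryos, and 24 libraries with IAA in 8 groups of 3 entered the fit, while 4 libraries without IAA were not used. The values are read counts per gene that the authors deposited in 1 table. Per the submitters' processing notes, the tools included featureCounts, DESeq2, HISAT, Trimmomatic, Picard and SAMtools, with GRCz11 as the genome build and no order or settings given. Per the file headers the counts are filtered ones; the kind of filter is not stated in the labels or header. Per the labels' protocols, s4U RNA was biotinylated and enriched, and a stranded kit was used without poly(A) selection, so the counts measure labelled RNA after enrichment and not total RNA.

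From these counts, 37 of 32520 genes on the mitochondrial genome were left out, because their share differed widely between stages. Of the other 32483, 13168 passed filterByExpr with a minimum count of 10. edgeR 4.0.16 (R 4.3.3, limma 3.58.1) gave TMM factors on nuclear genes, quasi-likelihood fits over the 8 groups, and Benjamini-Hochberg adjustment over all tested genes, called at 0.05. Contrasts were Sphere minus 256c in the mutant, the same in wild type, and the difference between them. SE is on the log2 scale. A group at 0 was set to 3 counts over the group for a bound, and for 1 to 3 counts a 95% binomial interval of the ratio was used; bounds and intervals cover counting error only. The depth of each mutant library is given above; the lowest, 258302 nuclear counts, limits what low genes can show. Gene lists matched 736 of 764 symbols.

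Members and lists were chosen with earlier results of these data known. Genes were named by rule: the 12 largest changes and 8 smallest adjusted p in each direction of called genes with separate groups, a mean of 5 CPM or more at the higher stage and no clone name; up to 3 called members per list and direction; the 6 highest per kilobase of exon at each stage; the called differences of courses; cdk9 and mir430. Genes named for their level at 256c were chosen after their values were seen. Alternatives were RLE factors, total nuclear counts, TMM with mitochondrial genes, no filter, a minimum of 30, DESeq2 1.42.0, only the 6 or the 12 mutant libraries, thinning Sphere to 256c depth, a replicate block and leaving out each library. Whether equal replicate numbers mark paired libraries is not given in the labels, and the main fit used no pairing. Residuals of same-numbered Sphere and 256c libraries correlated at 0.055, 0.070 and -0.097 in the mutant. In wild type they correlated at 0.068, 0.053 and 0.025. These values do not settle whether the numbers pair the libraries. Some genes that the rule names are not reported here.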

Additional observations from a re-analysis of the deposited data

Results flagged for a closer look

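The courses of 11 genes differed between genotypes by the interaction test of edgeR, with adjusted p between 0.0373 and 0.0476; values are log2 of the mutant course minus the wild type course. The difference was 3.48 for tomm70a and 4.26 for zgc:113176, whose labelled RNA rose in the mutant and had negative values in wild type. It was -9.63 for BX927212.1, -9.86 for FP102169.1, -9.19 for mhc1zfa and -8.98 for srek1ip1. It was -7.02 for hypk, -6.36 for ptprea, -6.5 for si:ch73-37h15.2, -5.98 for zbtb17 and -5.23 for scp2b. At wild type 256c, FP102169.1, mhc1zfa and srek1ip1 had 0 counts, and BX927212.1, hypk, zbtb17 and si:ch73-37h15.2 had 1 or 2, so the fitted differences of these 7 genes depend on the prior count and are not bounds. Of these, ptprea and scp2b fell in the mutant and rose in wild type. The ptprea call in the mutant was lost without 256c replicate 1 or Sphere replicate 1 or 2. Deletion, rescue injection and line background cannot be told apart in this comparison, and the number of called genes moved with single libraries.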

How the results depend on the processing

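The mutant course gave 3216 rises and 3338 falls. Rises numbered 1969 with total nuclear counts and 2095 with Sphere libraries thinned to 256c depth. They numbered 4237 with RLE factors, 4620 with DESeq2 and 4104 without a filter. Falls numbered 4426 with total nuclear counts, 2456 with RLE factors, 2788 with DESeq2 and 2993 without a filter. When 1 mutant library was left out, rises numbered between 2142 and 3757 and falls between 2167 and 3230. No gene called in 1 direction was called in the other under any alternative run. In wild type, rises numbered 2350 with total nuclear counts and 2686 after thinning; falls numbered 3720 with total nuclear counts, 2588 with TMM on all genes, 1056 without a filter, and between 411 and 3725 with 1 library left out.

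Differences of courses, more positive and more negative in the mutant, numbered 1 and 0 with RLE factors, 17 and 74 with total nuclear counts, 35 and 578 without a filter, 125 and 382 with DESeq2, and 0 and 3 after thinning. More positive ones numbered 7 with TMM on all genes and 5 with a minimum count of 30. With 1 library left out, they numbered between 0 and 30 and between 0 and 363. The replicate block rests on numbers that the labels do not say pair the libraries. With it the mutant course had 3861 rises and 3595 falls, wild type falls numbered 2767, and differences 32 and 148.

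The difference in genes detected at common depth was -298.4; it was -1253 without Sphere replicate 3, 18.4 without Sphere replicate 1, 339 without Sphere replicate 2 and 6992 at full depth. Near-zero log2 values changed sign: zgc:113886, mhc1zfa, zbtb17, si:ch73-37h15.2 and cdk9 were 0.00567, 0.0332, 0.382, 0.114 and 0.0205 with RLE factors and 0.00567, 0.0340, 0.383, 0.114 and 0.0209 with DESeq2. zgc:113886 was 0.103 with the replicate block. Without 256c replicate 3, zgc:100951, FO834825.3 and zgc:113886 were 0.168, 0.00042 and 0.502, and the lowest values, without 256c replicate 1, were -1.75, -1.48 and -1.14. zbtb17 ranged between -0.58 without Sphere replicate 2 and 0.152 without Sphere replicate 3, and dre-mir-430b-10 between -5.37 without 256c replicate 2 and 0 without 256c replicate 1. The cause was not tested. The low depth of the 256c libraries limits genes of few counts there, and the 256c libraries differ among themselves.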

Other observations

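Sphere replicate 3 differed from the other Sphere libraries in a group of genes chosen here after the values were seen. In 200 genes it held at least 4 times the CPM of both others, at 50 CPM or more. arrdc2, an arrestin domain gene, had 500, 232 and 2266 CPM in the Sphere libraries and 51.1, 46.8 and 296 CPM in the 256c libraries. nfe2l2b, a gene of the oxidative stress response, had 341, 81.8 and 1804 CPM in the Sphere libraries and 61.4, 27.0 and 85.5 CPM in the 256c libraries. In 116 genes both other Sphere libraries held at least 4 times the CPM of replicate 3, and 27 of the 116 were histone genes, against 54 of all 13168 tested genes. Genes set apart in the same way by Sphere replicate 1 or 2 were not counted. Whether handling, age or parentage of those embryos differed was not tested.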
